A study of Schizosaccharomyces pombe with 2 samples.

Results

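The sequence that the array files number 4 is a tiled stretch of fission yeast DNA, kept apart from the numbered chromosomes on an expression tiling array. Its members are the 824 probes, of 43993 on the array, whose positions name that sequence and that are not control spots. They run from base 1 to base 41210 and start every 50 bases, alternating between strands, with 412 probes of 60 bases on each strand. The fission yeast genome has no chromosome of that number, and the files do not say where the sequence comes from. No probe is paired with a gene there. No source used here gives a genome build, so places are given by position and strand. The base sequences of the probes were not analysed here.

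The 2 arrays, each read in a red and a green channel, held RNA of Schizosaccharomyces pombe. On one, asf1-1 cells, which carry an allele of the gene for the histone chaperone Asf1, were set against wild type, and on the other cells with the hip1 deletion (∆hip1) were. Mutant RNA was labelled with Cy5 and wild-type RNA with Cy3, and all cultures grew exponentially in rich YEA medium at 30 °C. Each mutant had 1 array and the dyes were not swapped, so no difference has a replicate check and none was tested. The sources used here do not say whether one wild-type extract served both arrays. Strand is as the array files give it.

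Asf1 hands histones H3 and H4 to other assembly factors, and Hip1 is a subunit of HIRA, a complex that deposits these histones outside DNA replication. Heterochromatin is the compact, mostly silent form of chromatin. In fission yeast it covers the repeats around centromeres, the chromosome ends and the silent mating-type cassettes, and short repeats inside it can be transcribed from both strands. The series title links both chaperones to histone deacetylation and to how densely nucleosomes occupy heterochromatin.

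In wild type the sequence held transcribed stretches at its ends, a long dim stretch in the middle and, inside the dim part, a short stretch bright on both strands. All levels below are log2 spot signals after background correction and normalization, read as medians over the probes of 1 strand in windows of 1 kb. Levels of different probes also reflect how well each probe binds, so windows are compared as high or low and not by fold. A window was called silent when its wild-type level lay among the lowest 25% of all windows of the array, with limits of 7.84 (asf1-1 array) and 7.80 (∆hip1 array). It was called transcribed at or above the array's middle, 9.49 and 9.41, on both arrays.

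Of 82 windows with at least 3 probes, 42 were silent (51.2%), 19 intermediate and 21 transcribed (25.6%). Over the whole array 23.0% of 4408 windows were silent and 48.7% transcribed. The long tiled block of chromosome 2 had 22.1% silent windows. The interval of that chromosome from 1.6 to 1.65 Mb had 51 silent windows of 100, beside 42 of 82 here. The plus strand of the sequence had 22 silent and 7 transcribed windows of 41, and the minus strand had 20 and 14. In the wild-type channel, 57.2% of its probes were well above background (asf1-1 array) and 58.3% (∆hip1 array), against 79.6% and 78.9% of all probes.

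**Figure D1:**
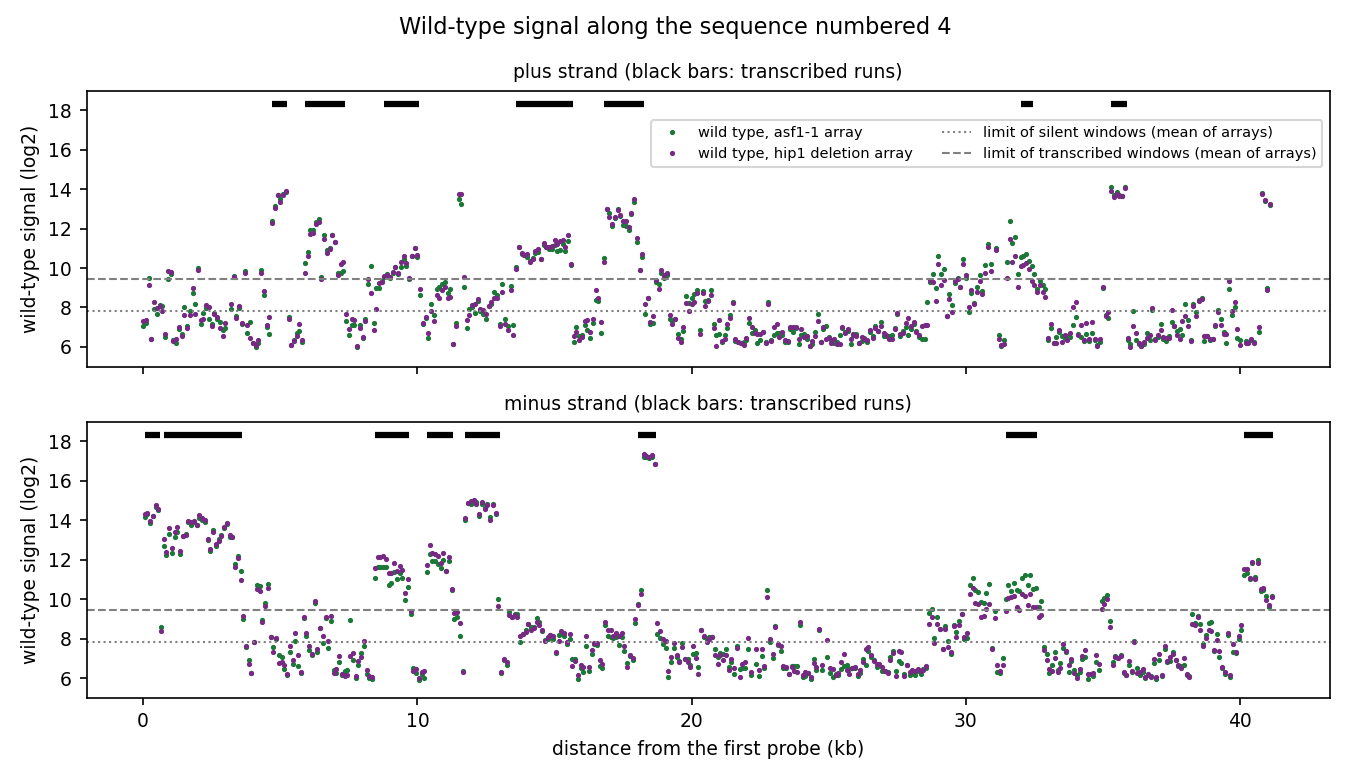
Wild-type log2 signal of each probe against distance from the first probe in kb, plus strand above and minus strand below, with 1 colour for each array. Bright runs lie in the first 19 kb, the signal is low from 21 to 29 kb, rises on both strands until 33 kb and is low again to 38 kb except for a plus-strand run near 35 kb.

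Transcription came in 15 runs of at least 5 neighbouring probes of 1 strand above the array's middle probe, 7 on the plus and 8 on the minus strand. They held 81 of 412 plus-strand probes and 101 of 412 minus-strand probes. The longest run lay on the minus strand from 751 to 3610 and held 29 probes, with a wild-type level of 13.2 on both arrays. The brightest, also on the minus strand, was short: 7 probes from 18051 to 18710 had 17.1 (asf1-1 array) and 17.2 (∆hip1 array). On the plus strand, 21 probes from 13601 to 15660 had 10.9 and 11.05, and 15 probes from 16801 to 18260 had 12.2 and 12.4. In the first 19 kb runs lay on either strand and in places on both: the minus-strand run at 8451 to 9710 lay opposite the plus-strand run at 8801 to 10060, and that at 18051 met the end of the plus-strand run at 16801 to 18260. Minus-strand runs at 10351 to 11310 (11.9 and 12.2) and 11751 to 13010 (14.8 and 14.8) stood between plus-strand runs at 8801 (10.04 on each array) and 13601.

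The dimmest windows of each strand lay at 21001, 36001 and 40001 on the plus and at 25051, 34051 and 36051 on the minus strand, between 6.25 and 6.59 in wild type. The window at 40001 is dim by its median only, since its probes at 40801 and 40901 had 13.8 and 13.4 on each array. The dim stretch from 21001 to 29010 was silent on both strands in 8 neighbouring windows, the longest such row in the sequence. On its plus strand, 9 of 80 probes were well above background in wild type (asf1-1 array) and 11 (∆hip1 array), with median levels of 6.63 and 6.69. On its minus strand 16 and 20 of 78 probes were, with 6.58 and 6.64. A second dim part followed from 33001 to 38010. It was interrupted by the plus-strand run at 35301 to 35860, whose 6 probes had a wild-type level of 13.8 and 13.7. In all, 17 of 41 kb were silent on both strands by window median. Such a kb can still hold transcribed probes. The plus-strand windows at 5001, 7001 and 16001 are among them and hold parts of the runs at 4701 to 5260, 5901 to 7360 and 16801 to 18260.

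Between the dim parts, from 29001 to 33010, both strands carried signal. On the plus strand 36 of 39 probes were well above background in wild type on each array, and on the minus strand 36 of 40. The median wild-type level of the plus strand was 9.62 (asf1-1 array) and 9.32 (∆hip1 array), and that of the minus strand was 9.83 and 9.19. This bright part had a gap. From 31201 to 31460 the plus strand fell to 6.33 and 6.16, and from 31151 to 31410 the minus strand fell to 6.33 and 6.64, 3 probes each.

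The signal of the mutants relative to wild type was then compared window by window. In asf1-1, 8 of 82 windows exceeded wild type by 2-fold or more and 4 lay below it by as much, where 13.6% and 7.42% of all 4380 windows of the array with a ratio were. In ∆hip1 8 were higher and 0 lower, against 12.7% and 3.63% of all windows. These counts are 9.76% and 4.88% of the sequence's windows in asf1-1 and 9.76% and 0% in ∆hip1. With strands pooled, each is a smaller share than over the array under this scaling. On the minus strand alone, 14.6% of windows were higher and 7.32% lower in asf1-1, against 14.2% and 6.81% over the array. In ∆hip1 19.5% were higher there and 0% lower, against 13.1% and 3.61%. On the plus strand the shares in asf1-1 were 4.88% and 2.44%, against 12.96% and 8.03%. Those in ∆hip1 were 0% and 0%, against 12.3% and 3.65%. The pooled order turned for higher windows of asf1-1 under loess on the bright probes (28.05% here and 23.0% over the array). For lower windows under the scanner log ratio the shares were nearly equal (13.41% and 13.36%). Of the higher windows, 6 were shared by the mutants, all on the minus strand. These are 75% of the higher windows of each mutant, where over the array 73.1% of those of asf1-1 and 78.4% of those of ∆hip1 were shared. Both ratios have a wild-type sample as control, which may be the same extract. The median log2 ratio over plus-strand windows was 0.04 in asf1-1 and -0.003 in ∆hip1, and over minus-strand windows it was 0.04 and 0.11. Loess sets the middle of each array near 0, so an overall shift of RNA would not be seen. The counts depend on the scaling: with median centring asf1-1 had 21 higher windows (25.6%, and 27.3% over the array) and ∆hip1 had 6 lower ones (7.32%, and 9.41% over the array).

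**Figure D2:**
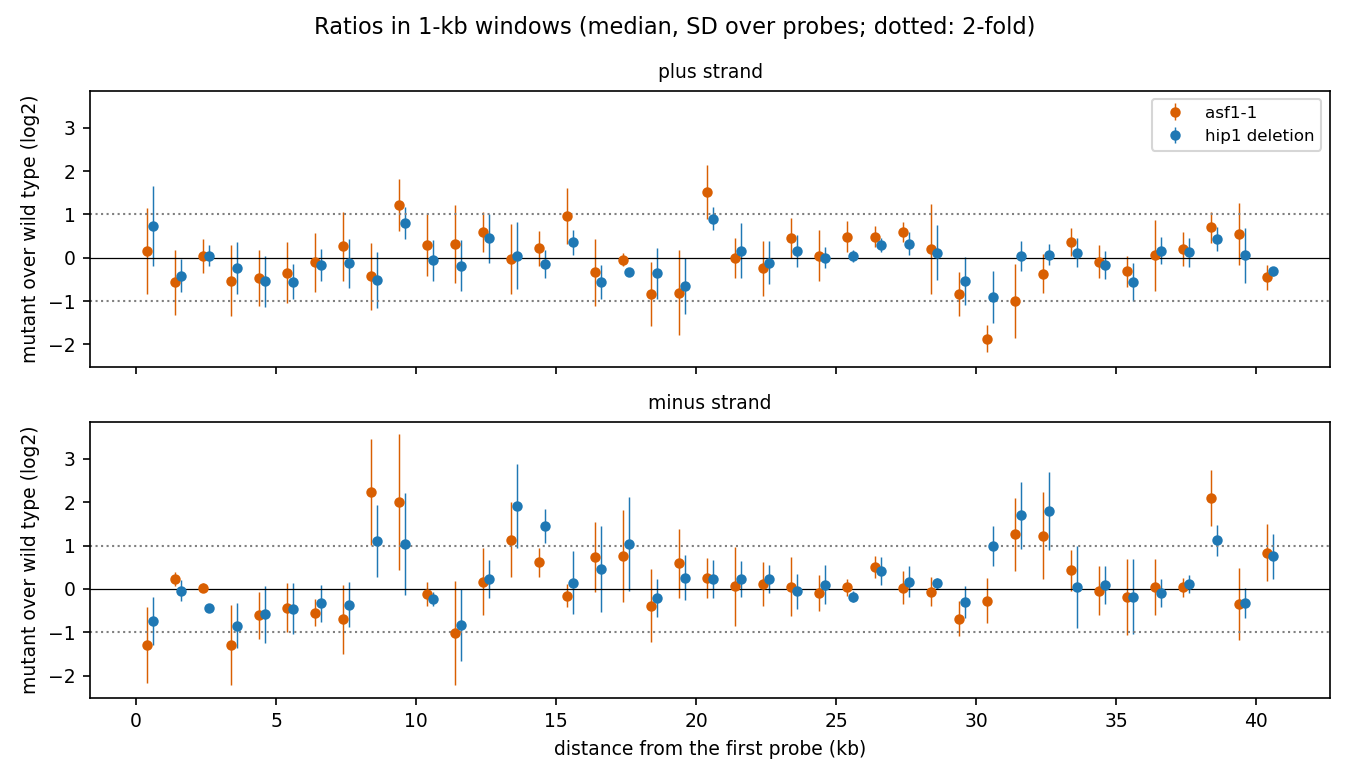
Median log2 ratio of mutant over wild type in 1-kb windows against distance from the first probe in kb, asf1-1 in orange and ∆hip1 in blue, with bars for the SD over probes and dotted lines at 2-fold. The windows past 2-fold lie mostly on the minus strand near 8, 13, 32 and 38 kb, and all ratios between 21 and 29 kb are within 2-fold.

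As reported here, the silent windows stayed within 2-fold of wild type in both mutants. Windows were classed for this purpose by wild type as measured on the other array, since each ratio divides by its own. In asf1-1 the 42 silent windows had a median of 0.04 (log2 ratio) and lay between -0.805 and 0.74, with 0 past 2-fold in either direction. In ∆hip1 the 45 silent windows had 0.05 and lay between -0.65 and 0.74, again with 0 past 2-fold. Some of these ratios rest on bright probes. The plus-strand window at 40001 used 3 probes, and its -0.46 in asf1-1 is the ratio of the probe at 40801, with 13.8 in wild type. Among all silent windows of the array, 15.8% of 1074 were at least 2-fold higher in asf1-1 (median 0.30) and 10.8% in ∆hip1 (median 0.13). Within these limits some levels of the long dim stretch were slightly higher in asf1-1. Over all 80 probes of its plus strand the level was 6.63 in wild type and 6.825 in asf1-1. On the ∆hip1 array it was 6.69 and 6.76. Over the 78 minus-strand probes the levels were 6.58 and 6.64, and 6.64 and 6.66. The 56 usable plus-strand probes had a median ratio of 0.44 ± 0.65 in asf1-1 and 0.16 ± 0.44 in ∆hip1. On the minus strand 50 probes had 0.14 ± 0.51 and 0.12 ± 0.36. All 56 were well above background in asf1-1 but few were in wild type, so this filter favours higher ratios. The plus-strand windows starting at 25001, 26001 and 27001 had ratios of 0.485 ± 0.35, 0.48 ± 0.24 and 0.59 ± 0.24 in asf1-1. At 27001 all 10 probes were usable and above wild type. At 25001 and 26001, 0 probes were well above background in wild type. The 6 and 8 usable ones passed through the mutant channels, so their lying above wild type is no separate sign of a rise. Over all 10 probes of each window the level was 6.56, 6.61 and 6.62 in wild type and 7.06, 7.12 and 7.38 in asf1-1. The minus-strand window at 26051 had a ratio of 0.50 ± 0.25 in asf1-1. The 0 past 2-fold is not independent of the scaling. Loess on the bright probes raised 12 silent windows of the sequence past 2-fold in asf1-1 and 0 in ∆hip1, while 45.0% and 20.1% of all silent windows of the array passed. The scanner log ratio raised 10 and 4, beside 43.8% and 32.5% of all silent windows. Silent windows at least 2-fold lower also appeared: 4 in asf1-1 and 1 in ∆hip1 by the scanner log ratio, and 2 and 1 with median centring. The series table gave 3 and 1. The array's share of such lower windows under these settings was not taken.

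Near background a ratio is compressed by the offset added to each signal, so single probes were also examined. Of 353 probes not well above background in wild type on the asf1-1 array, 208 (58.9%) were well above it in asf1-1, against 71.0% of such probes over the array. In ∆hip1 111 of 341 (32.6%) were, against 50.2%. On both arrays more probes were well above background in the mutant channel (82.4% and 70.6% here, 93.9% and 88.8% over the array) than in the wild-type channel. The part of the dye in this was not tested. For 13 probes in asf1-1 (3.68%, against 13.4% of such probes over the array) and 3 in ∆hip1 (0.88%, against 8.80%), the rise was at least 2-fold. A bound of this kind sets the mutant signal against the higher of the probe's own wild-type signal and the lowest signal well above background on that array. On the asf1-1 array that lowest signal was 5.79, under the dimmest wild-type probe of the sequence (5.90). The bounds in asf1-1 are thus the probes' own ratios, with the same compression. On the ∆hip1 array the lowest signal was 6.98.

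The 13 probes in asf1-1 were spread from 13001 to 39460. The largest bound in asf1-1 was at least 2.84-fold at 21151 to 21210 on the minus strand. The largest of all was at least 6.99-fold in ∆hip1, at 33851 to 33910 on the minus strand, where asf1-1 had at least 2.77-fold. The neighbouring probes of that strand, at 33751 and 33951, had log2 ratios of 0.12 and 0.04 in ∆hip1 and 0.70 and 0.43 in asf1-1. The probe at 21001 to 21060 on the plus strand was also higher in both mutants, at least 2.04-fold in asf1-1 and at least 2.79-fold in ∆hip1. Its neighbours at 20901 and 21101 had -0.28 and 0.105 in asf1-1 and 0.04 and -0.003 in ∆hip1. Both are thus values of single spots.

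In the stretch bright on both strands, some of the plus strand was lower and some of the minus strand higher in the mutants. On its plus strand from 30001 to 30960 the level was 9.26 in wild type and 7.51 in asf1-1 on one array, and 9.11 in wild type and 7.92 in ∆hip1 on the other. Both mutants lay below both wild-type values. The log2 ratio in asf1-1 was -1.87 ± 0.31 and that in ∆hip1 -0.90 ± 0.59 (SD over 10 probes, which covers spot differences only). It was the lowest window of the sequence in either mutant. Under median centring the ratios were -0.73 and -0.20, so that asf1-1 no longer passed 2-fold.

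On the opposite strand, 12 probes from 31451 to 32610 formed a transcribed run that was higher in both mutants. Its level was 10.6 in wild type and 12.3 in asf1-1, and 9.90 in wild type and 11.9 in ∆hip1. All 12 probes were above wild type in both mutants. The log2 ratios were 1.65 ± 0.45 in asf1-1 and 1.99 ± 0.28 in ∆hip1. The wild-type channels of the windows starting at 31051 and 32051 differed by 0.78 and 0.92 between arrays, outside the range of -0.46 to 0.59 that holds the middle 95% of all windows. Against the wild type of the other array, here called crossed wild-type channels, the ratios were 2.53 and 1.16. The windows starting at 31051 and 32051 then had 0.84 and 0.87 in ∆hip1, under 2-fold, in place of 1.70 and 1.80.

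The mutants differed within this stretch. On the plus strand from 30701 to 31160, 4 probes had a level of 8.68 in asf1-1 and 10.3 in ∆hip1, with wild type at 10.6 and 10.4. Their log2 ratio was -1.92 ± 0.16 in asf1-1 and -0.06 ± 0.29 in ∆hip1, and -1.67 and -0.31 with crossed wild-type channels. Immediately before, from 29601 to 30660, 11 probes were lower in both mutants, at -1.49 ± 0.37 and -1.13 ± 0.26. Past the gap, from 31501 to 31960, 5 probes had -1.025 ± 0.43 in asf1-1, all below wild type, and -0.01 ± 0.40 in ∆hip1. There the wild-type channels differed by 0.89, and crossed ones gave -0.30 and -0.95. These borders were drawn after the values were seen, and the difference was not tested.

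On the minus strand from 30151 to 30910 asf1-1 was again below ∆hip1, but near wild type. Over 8 probes the level was 10.3 in asf1-1 and 10.8 in ∆hip1, with wild type at 10.4 and 9.75. The log2 ratios were -0.27 ± 0.50 and 1.02 ± 0.23, but crossed wild-type channels gave 0.43 and 0.33, with no such difference.

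**Figure D3:**
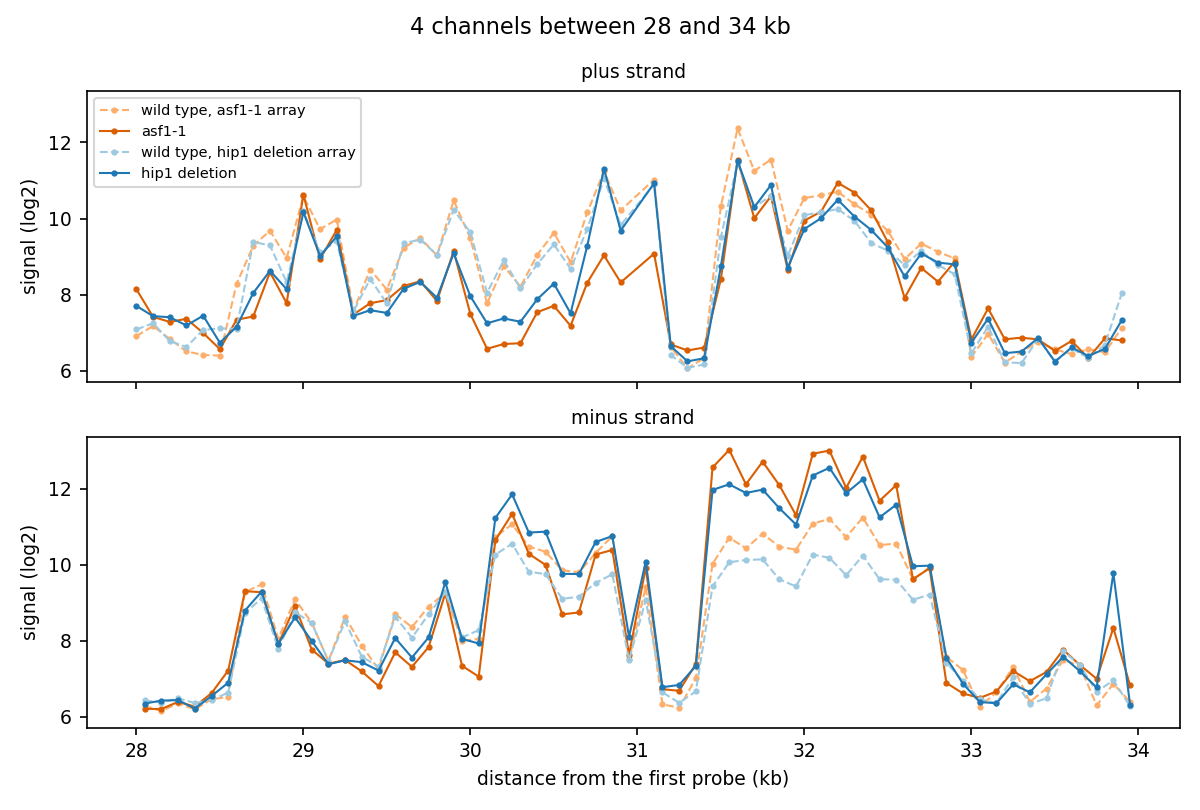
Log2 signal of the 4 channels for each probe between 28 and 34 kb from the first probe, plus strand above and minus strand below, wild type as dashed and mutants as solid lines. Both mutants lie above wild type on the minus strand after the gap that both strands share, and asf1-1 lies lowest on the plus strand before the gap.

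Outside this stretch the highest ratios lay on the minus strand. A transcribed run of 13 probes from 8451 to 9710 had a level of 11.1 in wild type and 13.3 in asf1-1, and 11.6 in wild type and 12.8 in ∆hip1. Both mutants exceeded both wild-type values, and all 13 probes were above wild type in each mutant. The log2 ratio in asf1-1 was 2.06 ± 0.40 and that in ∆hip1 1.08 ± 0.29. The wild-type channels differed by -0.46 (asf1-1 array minus the ∆hip1 array), and with crossed channels the ratios were 1.62 and 1.53, nearly equal.

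Opposite this run, the plus-strand run from 8801 to 10060 was raised too. Its level was 10.04 in wild type and 11.2 in asf1-1, and 10.04 in wild type and 10.9 in ∆hip1. The log2 ratio in asf1-1 was 1.21 ± 0.71 and that in ∆hip1 0.72 ± 0.51, with 12 of 13 probes above wild type in each. Here ∆hip1 stayed under 2-fold.

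A window close to the right end rose from a low level. On the minus strand from 38151 to 39010, 9 probes had 8.80 in wild type and 10.9 in asf1-1, and 8.42 in wild type and 9.58 in ∆hip1. The log2 ratio in asf1-1 was 2.09 ± 0.64 and that in ∆hip1 1.12 ± 0.37, and all 9 probes were above wild type in both. With crossed wild-type channels the order was the same, 2.44 and 0.75. The last run of the minus strand, 11 probes from 40151 to 41210, had 0.83 ± 0.43 and 0.95 ± 0.38, both under 2-fold.

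At the left border of the long dim stretch the plus strand rose as well. From 20001 to 20960 the level was 8.45 in wild type and 10.02 in asf1-1, and 8.23 in wild type and 9.0 in ∆hip1, over 10 probes. The log2 ratio over the 9 probes above background was 1.51 ± 0.62 in asf1-1 and 0.90 ± 0.26 in ∆hip1. In the adjoining window, from 21001 to 21960, 5 of 10 probes could be used, and the ratio was -0.003 ± 0.47 and 0.165 ± 0.63.

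The minus strand from 13151 to 15010 had a higher ratio in ∆hip1 than in asf1-1. It lies opposite the plus-strand run that starts at 13601. Over 19 probes the level was 8.43 in wild type and 9.26 in asf1-1, and 8.42 in wild type and 10.12 in ∆hip1. The log2 ratio was 0.83 ± 0.75 and 1.60 ± 0.75, with 18 and 19 probes above wild type. Crossed wild-type channels gave 0.83 and 1.54, the wild-type levels being alike. The difference between mutants is close in size to the SD over probes, but that SD includes a fall along the stretch in both mutants. The ratios were 2.37 and 2.96 at the probe starting at 13351 and -0.165 and 0.51 at 14951. Probe by probe, the ratio was higher in ∆hip1 at all 19. The mutant channels differed by -0.74 (asf1-1 minus ∆hip1, median over probes). With 1 array per mutant the difference was not tested.

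Decreases were fewer. The first 6 probes of the minus strand, from 51 to 610, formed a bright run with 14.3 in wild type and 12.9 in asf1-1, and 14.3 in wild type and 13.6 in ∆hip1. The log2 ratio was -1.43 ± 0.12 and -0.79 ± 0.06, below 0 at every probe. The neighbouring run from 751 to 3610 had medians of 0.06 ± 0.63 and -0.35 ± 0.42, but its last 3 probes, from 3351 to 3610, were lower, at -1.77 ± 0.15 and -1.235 ± 0.08. Other lower windows in asf1-1 lay on the minus strand from 3051 to 4010 (-1.30 ± 0.93) and from 11051 to 12010, where the log2 ratio was -1.03 ± 1.20. In ∆hip1 these windows had -0.85 ± 0.52 and -0.83 ± 0.84, both under 2-fold. The other low windows were also under 2-fold: on the plus strand from 18001 to 18960 the ratio was -0.84 ± 0.74 in asf1-1, from 19001 to 19960 it was -0.805 ± 0.99, and from 29001 to 29960 it was -0.84 ± 0.50. On the minus strand, the window from 7051 to 8010 had -0.70 ± 0.80 in asf1-1, that from 29051 to 30010 had -0.69 ± 0.41 and that from 4051 to 5010 had -0.61 ± 0.54.

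Most of the bright runs had medians near 0. The run at 18051 to 18710, the brightest of the sequence, had log2 ratios of 0.05 ± 0.95 in asf1-1 and -0.02 ± 0.36 in ∆hip1. The plus-strand run at 16801 to 18260 had -0.09 ± 0.67 and -0.32 ± 0.23, that at 13601 to 15660 had 0.23 ± 0.75 and -0.04 ± 0.52, and that at 5901 to 7360 had -0.10 ± 0.95 and -0.14 ± 0.61. On the minus strand the run at 11751 to 13010 had 0.20 ± 0.72 and 0.26 ± 0.41, and that at 10351 to 11310 had -0.30 ± 0.98 and -0.36 ± 0.47. Single probes of these runs in asf1-1 had ratios as low as -3.00.

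Opposite strands of the same kb moved by different amounts in part of the sequence. Of 41 kb with a ratio on both strands, 13 had strands at least 2-fold apart in asf1-1 and 10 in ∆hip1, 8 of them in both. These are 31.7% and 24.4%, beside 41.4% and 35.04% of all 2183 kb of the array. The widest gap in asf1-1 lay from 8001 to 9010, where the plus strand had -0.43 and the minus strand 2.23. In ∆hip1 that kb had -0.52 and 1.11. In ∆hip1 the widest lay from 30001 to 31010, with -0.90 on the plus and 0.99 on the minus strand, a gap of 1.89. There the wild-type channels of the minus strand differed by 0.69 between arrays. The kb from 13001 to 14010 came close, with 0.05 and 1.91, a gap of 1.87. Its minus-strand wild-type channels differed by 0.04.

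A short pattern recurred inside the sequence. The wild-type profile of both strands from 34601 to 36210 was most like that from 4001 to 5610 in the same orientation, with Pearson's r = 0.89 over 32 probes, and r = 0.77 for the next best place. These probes share arrays and extracts, and r is given as a description. The plus-strand run of the first place, from 4701 to 5260, had a wild-type level of 13.6 and 13.5 and log2 ratios of -0.28 ± 0.09 in asf1-1 and -0.55 ± 0.16 in ∆hip1. That of the second, from 35301 to 35860, had 13.8 and 13.7 and ratios of -0.29 ± 0.09 and -0.56 ± 0.07 (SD over 6 probes each). The minus-strand peak beside each was lower in both mutants: at 4351 to 4710 the ratios were -1.31 ± 0.60 and -1.25 ± 0.70, and at 34951 to 35310 they were -1.55 ± 0.47 and -1.12 ± 1.02 (SD over 4 probes). Whether probes of both places bind the same RNA was not tested.

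The outer parts of the sequence also had a counterpart on chromosome 2. The wild-type profile of the first 20 kb was most like that of chromosome 2 from 2111611 to 2131620, in the same orientation, with r = 0.90 over 397 probes. The next best stretch of the tiled chromosomes reached r = 0.50. The last 8 kb, from 33001 to 41210, was most like chromosome 2 from 2132311 to 2140520, with r = 0.91 over 161 probes, against 0.45 for the next best. The places on chromosome 2 follow each other closely, whereas on the sequence numbered 4 they lie 12.3 kb further apart.

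For the middle no place on the tiled parts of chromosomes 1, 2 and 3 stood out. In the dim part few probes were above background in wild type, so a low r there does not show that a counterpart is lacking. The dim part from 21001 to 29010 reached at most r = 0.40 over 157 probes, with 0.39 for the next best. The bright part from 29001 to 33010 reached r = 0.48 over 78 probes with chromosome 2 from 1636911 to 1640920 in inverted orientation, and 0.47 with 1609611 to 1613620 in the same orientation. Both places lie in the interval of chromosome 2 from 1.6 to 1.65 Mb named above, and both values of r are close to that of the dim part.

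**Figure D4:**
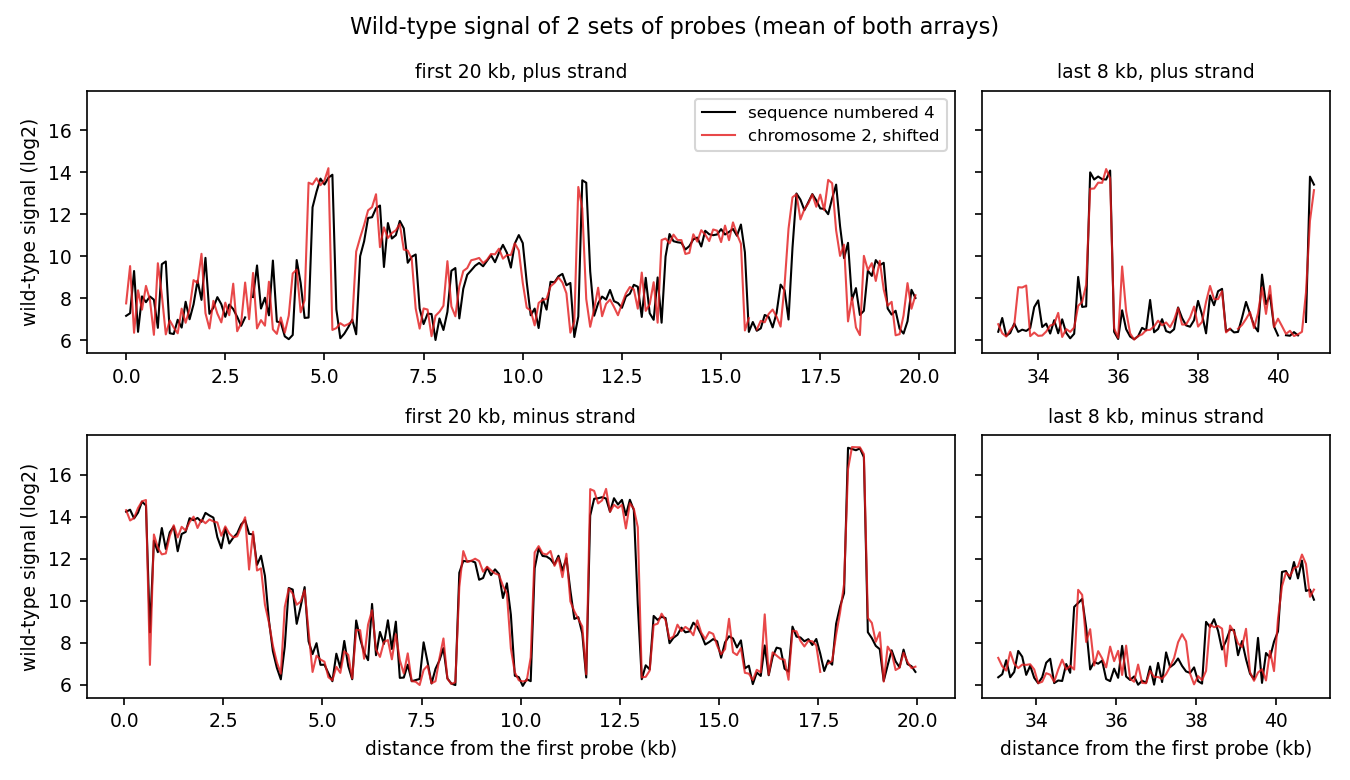
Mean wild-type log2 signal of both arrays for probes of the sequence numbered 4 (black) and for chromosome 2 probes at the best matching shift (red), against distance from the first probe in kb. Bright and dim runs coincide in the first 20 kb (r = 0.90) and in the last 8 kb (r = 0.91).

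The counterpart gave a second set of spots for matched windows on the same arrays. Across 56 paired windows the log2 ratios of asf1-1 had r = 0.945 and a median absolute difference of 0.13, and those of ∆hip1 had r = 0.93 and 0.14. The shift was chosen on wild-type levels, and both sets share extracts and dyes, so this does not describe the spread between cultures. Whether probes of both places bind the same RNA was not tested. One shift served the first 20 kb, although its first 10 kb alone was most like chromosome 2 from 2111511. The differences can thus hold effects of probe and position beside spot error. Of the 8 paired windows past 2-fold in asf1-1 on the sequence numbered 4, all 8 were past it the same way on chromosome 2, where 10 were past it. In ∆hip1 5 of 6 were, and 5 on chromosome 2.

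Single windows came out close. The minus-strand window from 8001 to 9000 had 2.23 on the sequence numbered 4 and 2.22 on chromosome 2 in asf1-1, and 1.11 and 1.14 in ∆hip1. The minus-strand window from 38001 to 39000 had 2.09 and 1.87 in asf1-1 and 1.12 and 1.01 in ∆hip1. The widest departures were on the minus strand from 17001 to 18000, with 1.03 and 1.87 in ∆hip1, and from 39001 to 40000, with -0.34 and 0.36 in asf1-1. For the stretch from 29001 to 33010 no such second set of spots was found. Its profile was searched for as a whole, so shorter counterparts could be missed.

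**Figure D5:**
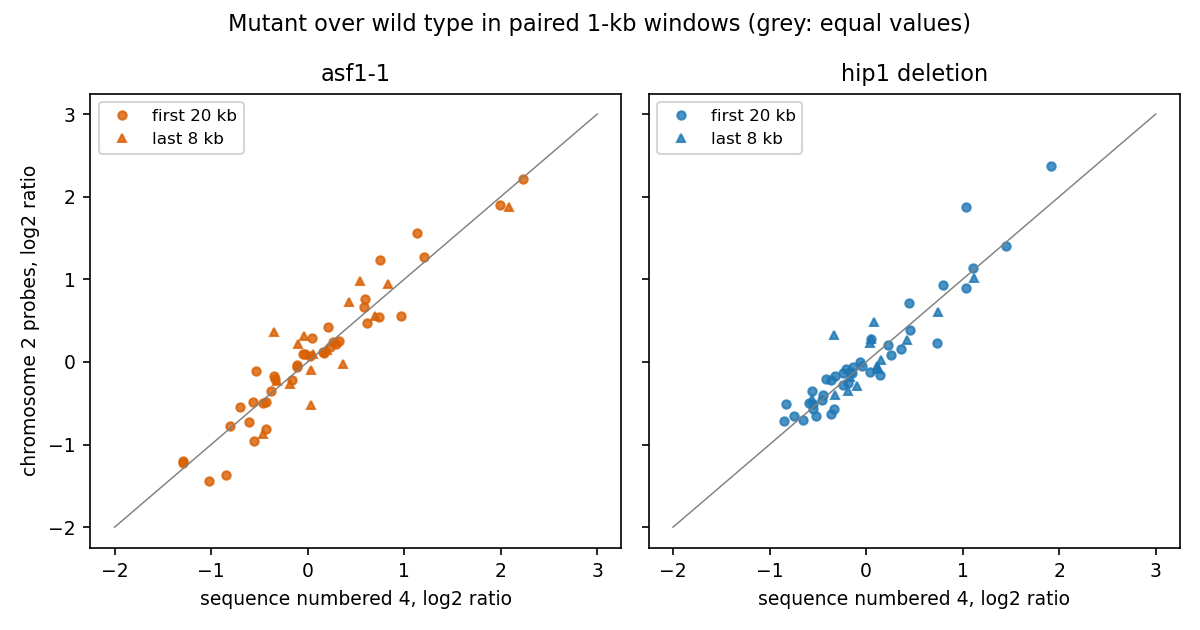
Log2 ratio of mutant over wild type in paired 1-kb windows, sequence numbered 4 on the x axis and chromosome 2 on the y axis, circles for the first 20 kb and triangles for the last 8 kb. Points lie along the line of equal values in asf1-1 (r = 0.945) and in ∆hip1 (r = 0.93).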

How the data were processed

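The image files were read by the scanner software, Agilent Feature Extraction (version 10.1.1.1), per the file headers. Deposited are, for each spot, a median intensity and a local background intensity without normalization. The software's processed intensity and the log10 ratio made from it, also deposited, are background-subtracted and dye-normalized. Each p-value in the deposited files concerns 1 spot. The authors' series table holds log2 values that equal the scanner ratio, or 0 where that p-value is above 0.05, for 100% of probes on both arrays (within 0.001). Its medians were 0 on both.

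Median signals were corrected by normexp with an offset of 50, which compresses dim ratios, and then by loess over the whole array, control and outlier spots at weight 0 (limma 3.58.1, R 4.3.3). Single channels were rebuilt after quantile normalization of mean intensity between arrays. Of 824 probes 6 were outliers and left out, and 681 were above background in at least 1 of 4 channels and gave ratios. Windows needed 3 probes. Windows were named for a rank in ratio (6 each way per array, at least 5 probes, 80% on 1 side), in wild-type level (5 brightest and 3 dimmest per strand) or in the difference between mutants (4 each way), and runs for holding at least 10 probes. Other places were chosen after their values were seen. Members and lists were chosen with earlier results of these data known. The calling of windows and runs and the search for like profiles were tested on simulated probe values. The planted window changes were past 2-fold, and background correction and loess were not simulated. Python 3.11.15 was used, with pandas 2.3.3, matplotlib 3.10.9 and numpy 2.4.6. The number of arrays, 1 per mutant, limits the precision.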

Additional observations from a re-analysis of the deposited data

Results flagged for a closer look

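In 2 windows the median ratios of the mutants had opposite signs and were at least 2-fold apart. However, asf1-1 in the first and ∆hip1 in the second were at wild type within their SD. Mutants at least 2-fold apart, whatever the signs, made up 3 of 82 windows (3.66%) here and 128 of 4380 (2.92%) over the array. The difference between mutants was not tested in either, as each mutant has 1 array. In the minus-strand window from 30051 to 31010 asf1-1 minus ∆hip1 was -1.255 (log2), from -0.27 ± 0.51 and 0.99 ± 0.47 (SD over 10 probes), and crossed wild-type channels gave 0.31 and 0.33. In the plus-strand window from 31101 to 31960 it was -1.03, from -0.995 ± 0.85 and 0.035 ± 0.35 (SD over 8 probes), and crossed channels gave -0.15 and -0.76. The mutant channels themselves were alike in the second window, at 8.66 and 8.74, while wild type was 10.3 and 9.51.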

How the results depend on the processing

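No paired analysis was possible because a mutant is represented by 1 array. Loess fitted on bright probes, those above background in all 4 channels, was added after seeing the data. Counts were taken as moved past 1.5 times and medians past 0.25 (log2). For each change below, the cause was not tested. Of 706 values of the 36 named windows under the alternatives, 82 moved by more than the SD over probes. Of 180 values past 2-fold as reported, 0 changed sign and 26 fell below 2-fold. Dim wild-type signals limit the ratios, since 42 of 82 windows were silent.

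As reported, asf1-1 had 8 windows higher and 4 lower, while ∆hip1 had 8 and 0. By the scanner's log ratio asf1-1 had 18 higher and 11 lower, with 4 lower in ∆hip1, 10 and 4 silent windows higher, and medians of 0.45 on the minus strand and 0.45 over silent windows of asf1-1. The series table gave 13 higher and 9 lower in asf1-1, 4 lower in ∆hip1, and 6 and 1 silent windows higher. Without background subtraction 7 were lower in asf1-1 and 1 in ∆hip1, where 1 silent window was higher. Median centring gave 21 higher in asf1-1, 6 lower in ∆hip1, 9 and 4 silent windows higher, and asf1-1 medians of 0.37 on the plus and 0.43 on the minus strand, 0.45 over silent and -0.50 over transcribed windows. Loess on bright probes gave 23 higher and 2 lower in asf1-1, of which 12 higher were silent. Its medians were 0.62 and 0.71 on the plus and minus strand in asf1-1 and 0.32 and 0.53 in ∆hip1, and 0.82 and 0.55 over silent windows. It moved the median of all windows of the array by 0.24 and 0.16. Over the array, the shares of asf1-1 windows higher and lower were 22.7% and 13.4% by the scanner's log ratio (22.0% and 13.4% here), 20.8% and 12.97% in the series table (15.85% and 10.98% here), 27.3% and 19.3% with median centring (25.6% and 7.32% here) and 23.0% and 5.75% with loess on bright probes (28.05% and 2.44% here).

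Keeping for ratios the bright probes alone gave 7 lower in asf1-1 and 2 in ∆hip1, plus-strand medians of -0.34 and -0.32, and -0.41 and -0.38 over silent windows. The mean over probes gave 1 lower and 2 silent windows higher in asf1-1, and 4 higher in ∆hip1. With 2-kb windows 3 were higher and 1 lower in asf1-1, 2 higher in ∆hip1 and 2 silent ones higher in asf1-1, whose transcribed windows had a median of 0.29. There were then 23 silent and 11 transcribed windows. With crossed wild-type channels ∆hip1 had 5 higher and 1 lower. At 1.5-fold asf1-1 had 17 higher and 11 lower, and ∆hip1 had 13 and 6, with 4 and 1 silent windows higher. Of all silent windows of the array, 33.7% and 23.4% were higher at 1.5-fold. In asf1-1 18.4% of them were at least 2-fold higher with the mean over probes and 15.5% with 2-kb windows. Runs of probes in the top 25% numbered 7 in place of 15.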
